A study of Mus musculus with 12 samples.

Results

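Hmgn2-/- mouse embryonic stem cells (mESCs) are compared here with wild-type (WT) mESCs in 6 of the 12 RNA-Seq libraries of the series. The members were chosen by genotype label: the 3 Hmgn2-/- libraries and the 3 WT libraries, with all 23412 genes of the deposited tables. The question is which genes, by function, differ in level between the edited line and WT mESCs. Both groups are the male mESC line v6.5, grown on gelatin with serum and LIF, untreated and harvested after 48 h. The Hmgn2-/- cells have 1 bp inserted on both alleles in exon 4 of Hmgn2 and grew from a single edited cell, so that the clone and the genotype cannot be told apart. The other 6 libraries, Hmgn1-/- mESCs and Hmgn1-/-Hmgn2-/- mESCs, serve only to set values side by side and to test how Hmgn2-/- mESCs differ from Hmgn1-/- mESCs.

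HMGN2 is a member of the high mobility group superfamily and binds chromatin without regard to DNA sequence. Members of the HMGN family bind the nucleosome core at its acidic patch, compete with linker histone H1 for chromatin and are found at promoters and enhancers in use. Mouse embryonic stem cells express several family members together.

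The 3 WT libraries held 31448468, 17614490 and 28524108 counts, and the 3 Hmgn2-/- libraries held 25908890, 26486535 and 17337908, with 16311 to 17295 genes at 1 count or more. Replicates are biological replicates by their labels, and a p-value measures the spread between them. Hmgn2-/- replicate 3 stood apart from the other libraries of its group: across genes, its log-scaled levels had a correlation of 0.9907 with replicate 1 and 0.9941 with replicate 2, while replicates 1 and 2 had 0.9965. Its 76 ribosomal protein genes summed to 103000 CPM (counts scaled to a common library total), against 74300 to 86270 in the other 5 libraries. WT replicate 1 was somewhat apart from the others, with 0.9943 and 0.9947 against 0.9971 between WT replicates 2 and 3. Levels below are CPM with library totals corrected by the TMM method of edgeR, without correction for gene length, and are given in the order of the replicates.

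The targeted gene was examined first, as a check of the labels. The guide used for Hmgn2 lies across the 3′ end of a coding exon, and both sequences are shown because they mark where the line was edited. The capitals in the guide are the 8 of its 20 bases that lie in the exon. The capitals in the exon are the complement of those 8 bases preceded by the 3 bases of the PAM. The expected cut lies 5 bases before the end of the exon. The exon, chr4:133966429-133966479 on the minus strand (GENCODE M21, GRCm38), is number 4 in most of the 6 coding transcripts of Hmgn2 and number 5 in others. The 12 guide bases on the intron side were not analysed, and 7 other annotated genes, Hmgn2 pseudogenes among them, hold the same exon sequence and could share its reads.
Hmgn2 guide: aggctggcttacCTTCGCAG
Hmgn2 exon: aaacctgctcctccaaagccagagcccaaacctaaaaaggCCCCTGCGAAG

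Hmgn2 (chr4:133964738-133968650) had 137, 122 and 119 in WT mESCs and 50.8, 54.8 and 54.1 in Hmgn2-/- mESCs. Each edited library lay below each WT library (log2 FC -1.24, SE 0.0847, adjusted p = 5.73e-06). Transcript remained in the edited line, and protein was not measured in these data. Hmgn1, a relative that binds nucleosomes through a similar domain, had 663, 597 and 612 in WT mESCs and 545, 558 and 645 in Hmgn2-/- mESCs, and these ranges overlapped (log2 FC -0.099, adjusted p = 0.493). Hmgn3 had a log2 FC of -0.71 (adjusted p = 0.0847) and Hmgn5 -0.33 (adjusted p = 0.167), so that no other HMGN gene passed the test. Hmga2, an AT-hook protein of embryonic and tumour cells, was the other member of the HMG family to fall, with 20.6, 27.6 and 32.3 in WT mESCs and 7.45, 8.55 and 6.35 in Hmgn2-/- mESCs (log2 FC -1.83, SE 0.175, adjusted p = 5e-05). Of 9 family members tested, 0 were higher, 2 lower and 7 not called, with a median log2 FC of -0.17. The 2 lower genes include the edited gene itself, which leaves Hmga2. Over all genes tested, 4.38% were called lower.

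**Figure D1:**
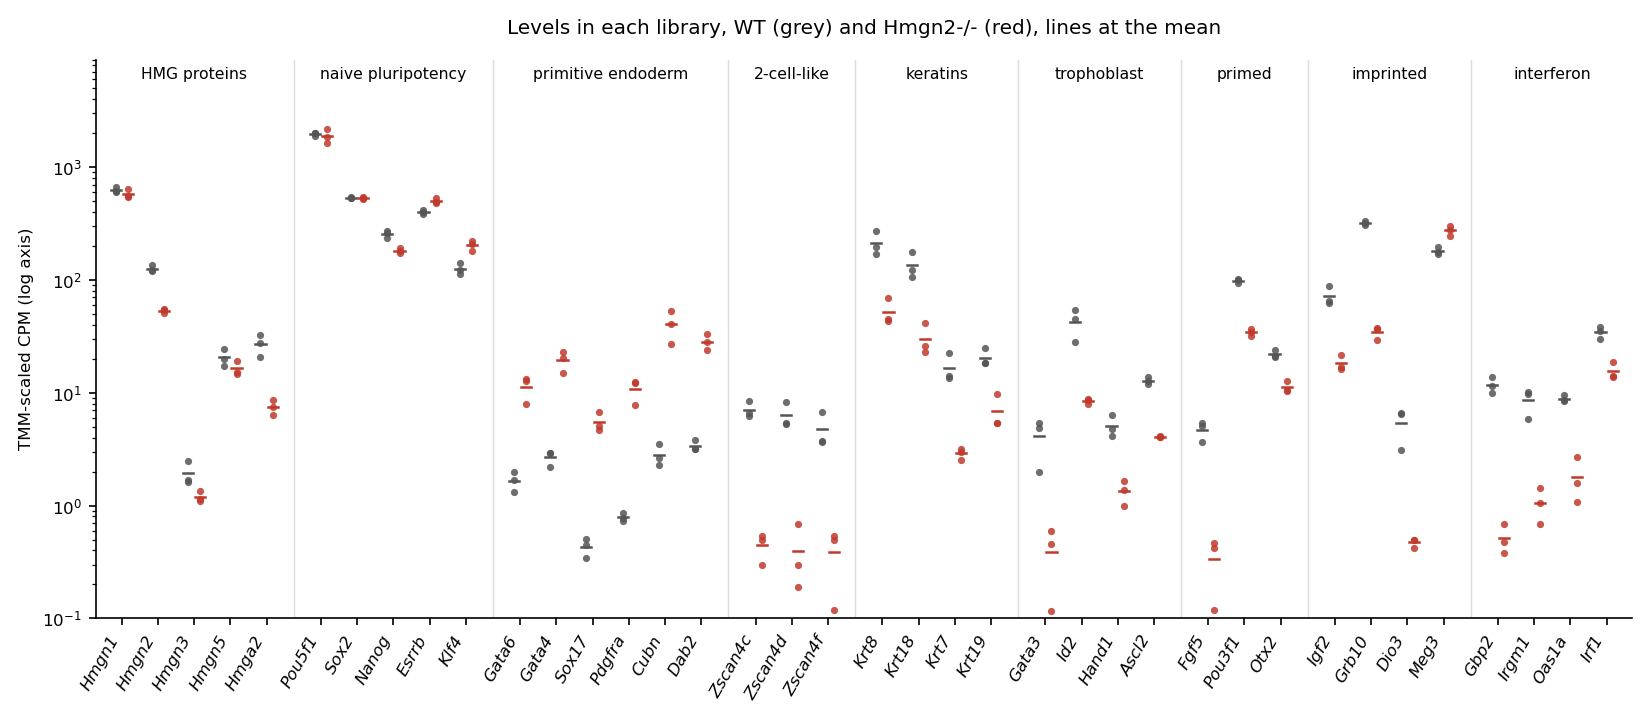
Level of selected genes in each library, as TMM-scaled CPM on a log axis, with WT in grey, Hmgn2-/- in red and a line at each mean (n = 3). Pou5f1 and Sox2 overlap between the groups, while Hmgn2, Zscan4c and Krt8 are lower and Gata6, Sox17 and Cubn higher in each Hmgn2-/- library.

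In the plot of selected genes, Pou5f1 and Sox2 sit at the same height in both groups. Several genes of other lineages are displaced, some by more than an order of magnitude. Many of the genes plotted were chosen by their calls in the test below, from lists made with earlier results known. The plot thus illustrates that test and adds no support to it. A gene was called when edgeR's quasi-likelihood test gave an adjusted p under 0.01 and a log2 FC of at least 1 in size. Of 14047 genes tested, 109 were called higher (0.776%) and 615 lower (4.38%), together 5.15%, and the median log2 FC over all genes was 0.013. The groups did not overlap in 5066 of the genes tested and in all 724 called genes, so that a lack of overlap adds nothing to a call. The called genes lay at low levels in WT mESCs: the median of their WT means was 4.46 CPM for the lower genes and 2.02 for the higher genes, against 21.2 for all genes tested. A log2 FC of -2 or less was found for 229 of the lower genes, and of 2 or more for 21 of the higher genes. Without WT replicate 2, the higher genes numbered 71, and without Hmgn2-/- replicate 3, the library that stood apart, there were 108 higher and 646 lower. When each change was tested against a log2 FC of 1 instead of 0 (glmTreat), 172 of all 724 called genes kept their call. Of the 119 named called genes, chosen largely for their size, 55 did.

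**Figure D2:**
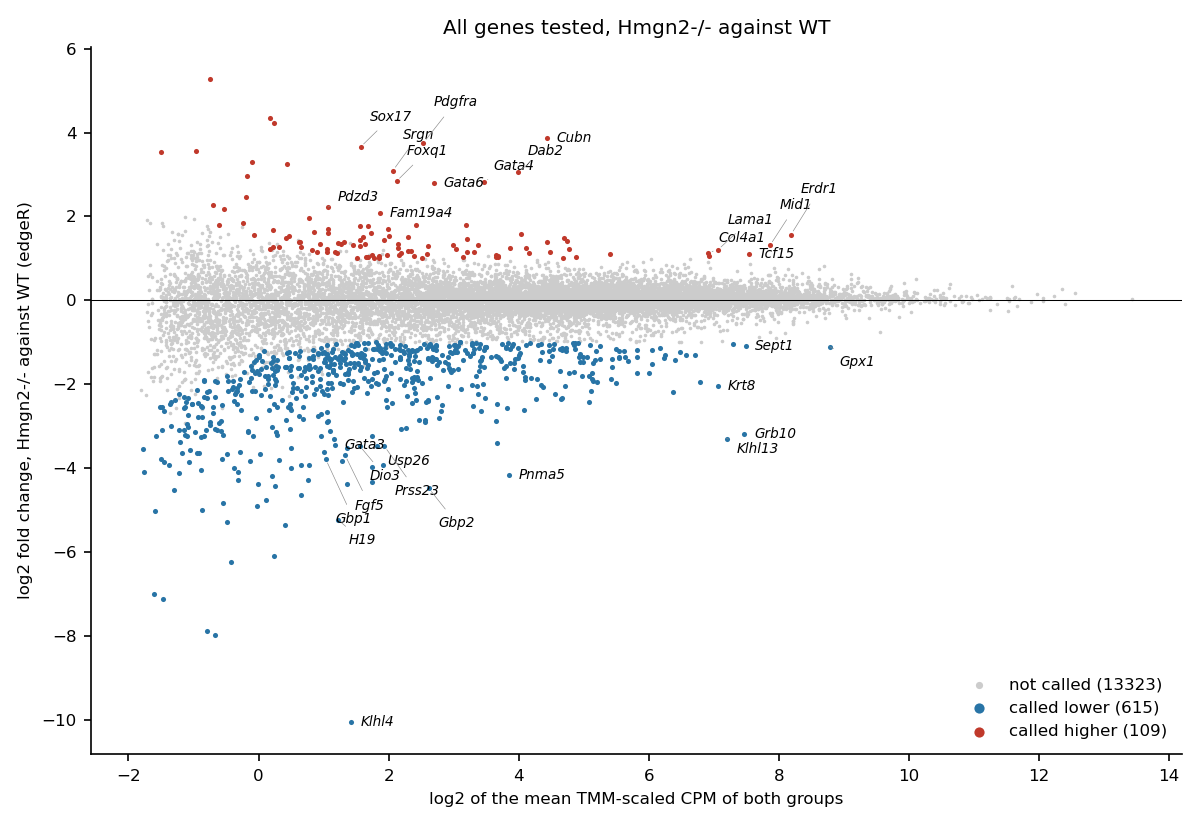
Log2 FC of Hmgn2-/- against WT mESCs for the 14047 genes tested, against the log2 of the mean TMM-scaled CPM of both groups. The 615 lower genes (blue) reach larger sizes than the 109 higher genes (red), and the labelled genes are examples with high counts.

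In the plot of fold against level, the falls reach further than the rises, and among abundant genes few points leave the central band. Klhl4, a kelch-repeat gene of the X chromosome, had 7.98, 4.22 and 3.81 in WT mESCs and 0, 0 and 0 in Hmgn2-/- mESCs. Its level was at least 129-fold lower in Hmgn2-/- mESCs, against a floor of 3 counts over the group. Klhl13, an X-linked adaptor of a ubiquitin ligase, fell and had 255, 273 and 270.4 in WT mESCs and 28.4, 29.0 and 23.5 in Hmgn2-/- mESCs (log2 FC -3.30, SE 0.0977, adjusted p = 2.48e-08). Pnma5, an X-linked paraneoplastic antigen gene, fell and had 24.8, 29.6 and 27.5 in WT mESCs and 1.5, 1.48 and 1.62 in Hmgn2-/- mESCs (log2 FC -4.16, SE 0.142, adjusted p = 3.95e-08). In these 3 genes, all X-linked, the groups were far apart, and autosomal genes with falls of such sizes are given below.

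Genes were then grouped by function into 44 lists. These held 788 different genes of the tables, of which 671 were tested, 18 called higher and 96 lower. Of the lists, 21 had members called lower and none higher, 3 had members called higher and none lower, 5 had both, and 15 had none.

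**Figure D3:**
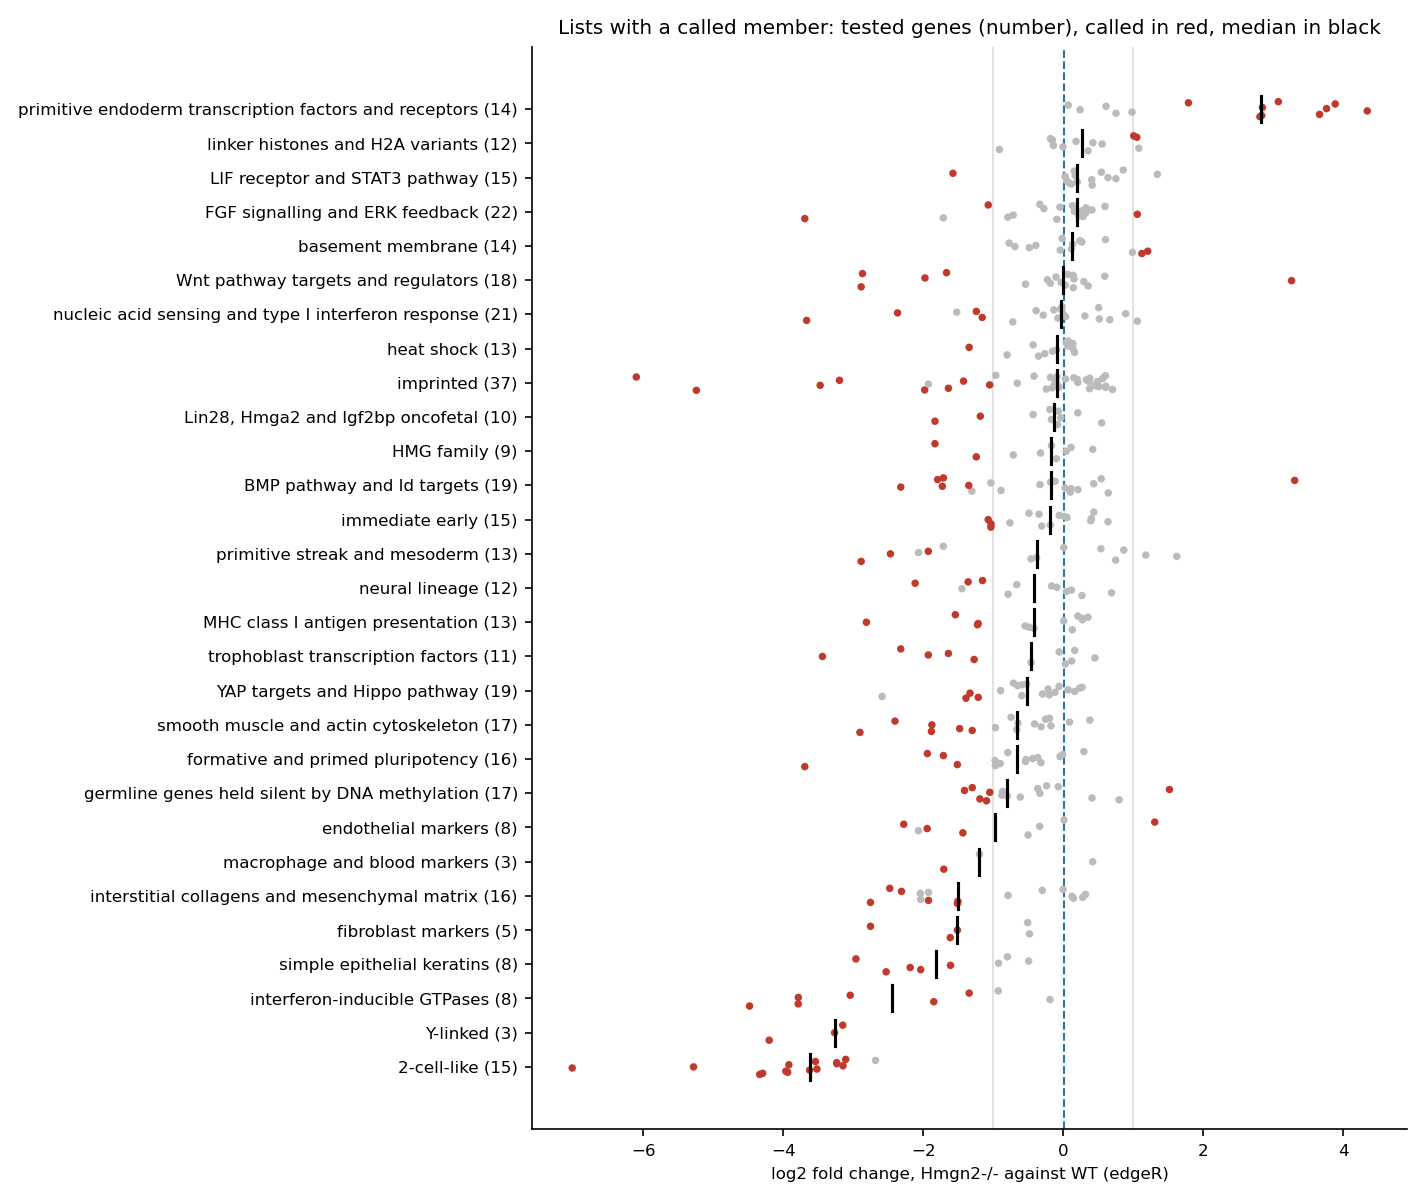
Log2 FC of Hmgn2-/- against WT mESCs for each tested member (points, called ones in red) of the 29 lists with a called member, with the number tested in brackets, a black bar at the list median and a dashed line at the median of all genes. The primitive endoderm list lies to the right of the line at a median of 2.82, and the 2-cell-like list to the left at -3.62.

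In the chart of lists, the median of the primitive endoderm list is shifted upward, with 9 of its 14 tested members called. The medians of several other lists are shifted downward. The lists hold 18 of the 109 higher genes, so that most rises lie outside the chart. A list median is read beside the median of all genes tested, 0.013.

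Most tested regulators of the primitive endoderm, the first extraembryonic endoderm of the blastocyst, were higher in Hmgn2-/- mESCs. Of 14 members tested, 9 were higher, 0 lower and 5 not called, with a median log2 FC of 2.82. The transcription factor Gata6, which starts this lineage, had 1.31, 1.97 and 1.70 in WT mESCs and 12.7, 13.3 and 7.97 in Hmgn2-/- mESCs (log2 FC 2.81, SE 0.234, adjusted p = 2.25e-05). Its partner Gata4 had 2.91, 2.19 and 2.94 in WT mESCs and 22.9, 20.2 and 15.0 in Hmgn2-/- mESCs (log2 FC 2.83, SE 0.187, adjusted p = 4.54e-06), and Sox17, which acts after them, had 0.501, 0.450 and 0.346 in WT mESCs and 4.65, 6.76 and 5.09 in Hmgn2-/- mESCs (log2 FC 3.66, SE 0.265, adjusted p = 8.71e-06). For these 3 factors each Hmgn2-/- library lay above each WT library. Pdgfra, the receptor that marks primitive endoderm cells, had 0.783, 0.732 and 0.865 in WT mESCs and 12.5, 12.1 and 7.79 in Hmgn2-/- mESCs (log2 FC 3.76, SE 0.237, adjusted p = 3.74e-06). Cubn (chr2:13276338-13491813), the endocytic receptor cubilin, had 2.29, 3.54 and 2.63 in WT mESCs and 53.3, 41.1 and 26.8 in Hmgn2-/- mESCs (log2 FC 3.88, SE 0.255, adjusted p = 4.41e-06), and its partner Amn was called too (log2 FC 1.79). In 4 of these 5 genes, all but Sox17, Hmgn2-/- replicate 3 held the lowest of the 3 raised values, still above each WT library. Lrp2, the large receptor that works with cubilin, had 85.3, 109.6 and 98.5 in WT mESCs and 131, 103 and 72.5 in Hmgn2-/- mESCs and was not called (log2 FC 0.069). Summed over the list, which Lrp2 led in counts, the level was 182, 201 and 191 in WT mESCs and 404, 362 and 302 in Hmgn2-/- mESCs. Because these are bulk libraries, more cells of a type and more RNA per cell cannot be told apart, and the same holds for fewer cells and less RNA.

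Products of the differentiated extraembryonic endoderm did not follow as a group. Of 14 basement membrane genes tested, 2 were higher, 0 lower and 12 not called, with a median log2 FC of 0.12. Lama1, the laminin chain of the embryonic basement membrane, had 68.7, 90.5 and 83.8 in WT mESCs and 214, 199 and 146 in Hmgn2-/- mESCs (log2 FC 1.2, SE 0.143, adjusted p = 0.000198). Col4a1, a collagen IV chain, had 62.0, 78.3 and 87.8 in WT mESCs and 195, 176 and 124 in Hmgn2-/- mESCs (log2 FC 1.12, SE 0.164, adjusted p = 0.000793). The call of Col4a1 was lost without WT replicate 1 (0.99) and without Hmgn2-/- replicate 1 (0.98). Its partner Col4a2 was not called at 0.99, but was without WT replicate 3 (1.15) or Hmgn2-/- replicate 3 (1.14). Both lie on chromosome 8, where the median log2 FC of all genes tested was 0.28. Of 8 visceral endoderm genes tested, edgeR and DESeq2 each called 0, with 5 at an unadjusted p under 0.05 and a median log2 FC of -0.33. Apoe, the apolipoprotein with most counts of that list, had 560.4, 556 and 531 in WT mESCs and 430, 429 and 514 in Hmgn2-/- mESCs, and the marker Ttr had 0 counts in all 6 libraries.

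The core network of pluripotency was tested next, also as a check of the labelled cell type. Of 21 naive and core genes tested, edgeR and DESeq2 each called 0, with 9 at an unadjusted p under 0.05 and a median log2 FC of -0.019. Pou5f1, the Oct4 gene, had 1876, 2026 and 2012 in WT mESCs and 1649, 1838 and 2184 in Hmgn2-/- mESCs, and Sox2, its partner, had 534, 535 and 544 in WT mESCs and 531, 540.3 and 526 in Hmgn2-/- mESCs. Both markers of embryonic stem cells were thus abundant in the 2 groups, and their values overlapped. Nanog had 273, 236 and 260.3 in WT mESCs and 172, 191 and 180.1 in Hmgn2-/- mESCs (log2 FC -0.50, adjusted p = 0.00152), which is under the fold limit. Klf4, a naive factor downstream of LIF, had a log2 FC of 0.69 (adjusted p = 0.000899), and Esrrb had 0.32.

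Formative and primed genes, which embryonic stem cells switch on when they leave the naive state, were lower in part. Of 16 tested, 0 were higher, 4 lower and 12 not called, with a median log2 FC of -0.67. Fgf5, the classical marker of the epiblast after implantation, had 5.35, 5.06 and 3.67 in WT mESCs and 0.461, 0.418 and 0.12 in Hmgn2-/- mESCs (log2 FC -3.69, SE 0.332, adjusted p = 3.59e-05). Pou3f1, a POU factor of the primed state, had 99.1, 101 and 94.6 in WT mESCs and 36.9, 34.2 and 32.0 in Hmgn2-/- mESCs (log2 FC -1.51, SE 0.0855, adjusted p = 2.02e-06). Pim2, a kinase gene, had 178, 178 and 169 in WT mESCs and 49.3, 46.1 and 40.9 in Hmgn2-/- mESCs (log2 FC -1.94, SE 0.0881, adjusted p = 6.31e-07). In these 3 genes the groups were far apart. The fourth gene called was Fst, the activin antagonist follistatin (log2 FC -1.71). Otx2, which drives exit from the naive state, stood just inside the fold limit at -0.97, and was called without WT replicate 3 (-1.02) or without Hmgn2-/- replicate 1 (-1.07). Dnmt3b, the methyltransferase with most counts of the list, had a log2 FC of -0.011.

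Genes of 2-cell-like cells, the rare cells in mESC cultures that resemble the embryo at its first division, were much lower. Of 15 tested, 0 were higher, 14 lower and 1 not called. The median log2 FC was -3.62, also with genes at 0 counts set to their bound. Zscan4c, of the zinc finger family that marks this state, had 8.48, 6.58 and 6.23 in WT mESCs and 0.538, 0.494 and 0.299 in Hmgn2-/- mESCs (log2 FC -3.94, SE 0.254, adjusted p = 4.35e-06). Zscan4f had 6.79, 3.77 and 3.67 in WT mESCs and 0.499, 0.532 and 0.12 in Hmgn2-/- mESCs (log2 FC -3.52, SE 0.395, adjusted p = 0.000141). Tcstv1 had 0 counts in each Hmgn2-/- library and was at least 14.9-fold lower. Summed over 19 genes of the tables, the level was 54.5, 46.0 and 38.5 in WT mESCs and 3.69, 3.42 and 3.17 in Hmgn2-/- mESCs, more than an order of magnitude apart. Zscan4, Usp17l and Tcstv genes have near-identical copies that can share reads, so that the value of a single copy is uncertain, while the sum is less affected. Dux, the factor that turns this state on, had too few counts to be tested.

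Most tested simple epithelial keratins, the intermediate filaments of the first epithelia of the embryo, were lower. Of 8 tested, 0 were higher, 5 lower and 3 not called, with a median log2 FC of -1.82. Krt8 had 171, 198 and 273 in WT mESCs and 43.0, 45.1 and 69.0 in Hmgn2-/- mESCs (log2 FC -2.04, SE 0.199, adjusted p = 5.76e-05), and Krt18, its filament partner, had 107, 123 and 178 in WT mESCs and 23.2, 25.9 and 41.4 in Hmgn2-/- mESCs (log2 FC -2.19, SE 0.226, adjusted p = 8.36e-05). Krt7 (-2.53), Krt19 (-1.61) and Krt20 (-2.96) were also lower. The list, led in counts by Krt8, summed to 370, 414 and 559 in WT mESCs and 100, 113 and 164 in Hmgn2-/- mESCs. Every Hmgn2-/- library lay below every WT library in this sum.

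Trophoblast transcription factors, which govern the lineage of the placenta, were divided. Of 11 tested, 0 were higher, 5 lower and 6 not called, with a median log2 FC of -0.46. Gata3, an early trophectoderm factor, had 2.00, 5.40 and 4.91 in WT mESCs and 0.115, 0.456 and 0.599 in Hmgn2-/- mESCs (log2 FC -3.44, SE 0.503, adjusted p = 0.000793). Id2, an inhibitor of basic helix-loop-helix factors, had 28.0, 45.0 and 54.0 in WT mESCs and 8.61, 7.91 and 8.87 in Hmgn2-/- mESCs (log2 FC -2.32, SE 0.21, adjusted p = 3.64e-05). Ascl2, an imprinted factor of the placenta, had 12.6, 11.9 and 13.8 in WT mESCs and 4.07, 4.07 and 4.13 in Hmgn2-/- mESCs (log2 FC -1.64, SE 0.133, adjusted p = 1.81e-05). Hand1 (-1.93) and Tfap2a (-1.27) were called as well, though Tfap2a not without WT replicate 2 (adjusted p = 0.0108), WT replicate 3 (adjusted p = 0.0131) or Hmgn2-/- replicate 2 (adjusted p = 0.0137). Cdx2, the factor that defines the lineage, had a log2 FC of 0.028 and Eomes -0.46. The summed level, led by Tfap2c, was 120.4, 148 and 166 in WT mESCs and 96.2, 91.7 and 94.1 in Hmgn2-/- mESCs. Whether trophoblast-like cells had a part in these values was not tested.

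Imprinted genes, expressed from a single parental allele, held some of the largest single falls. Of 37 tested, 0 were higher, 8 lower and 29 not called, with a median log2 FC of -0.098. Grb10 (chr11:11930508-12038683), a maternally expressed adaptor that restrains growth factor signalling, had 335, 304 and 319 in WT mESCs and 37.9, 36.8 and 29.5 in Hmgn2-/- mESCs (log2 FC -3.20, SE 0.106, adjusted p = 3.95e-08). H19, a maternally expressed noncoding RNA, had 4.07, 4.33 and 5.29 in WT mESCs and 0.0769, 0.152 and 0.12 in Hmgn2-/- mESCs (log2 FC -5.24, SE 0.326, adjusted p = 3.59e-06), and Igf2, the paternally expressed growth factor of the same domain, had 62.9, 64.7 and 89.0 in WT mESCs and 21.8, 16.3 and 16.8 in Hmgn2-/- mESCs (log2 FC -1.98, SE 0.156, adjusted p = 1.63e-05). Both genes of this domain fell, although they are expressed from opposite alleles. Dio3, a thyroid hormone deiodinase, had 3.13, 6.47 and 6.61 in WT mESCs and 0.499, 0.494 and 0.419 in Hmgn2-/- mESCs (log2 FC -3.47, SE 0.354, adjusted p = 7.78e-05). Its neighbour in the Dlk1-Meg3 domain, the noncoding RNA Meg3, was not called and had 179, 195 and 169.7 in WT mESCs and 298, 279 and 247 in Hmgn2-/- mESCs (log2 FC 0.60, adjusted p = 0.000936). Peg13, a noncoding RNA, had 185 counts over the WT libraries and 2 over the Hmgn2-/- libraries, a ratio of 81.2 with a counting interval of 22.2 to 676, and its fitted log2 FC was -5.49 without Hmgn2-/- replicate 2 against -6.10 with all libraries. Ascl2, Plagl1 (-1.43) and Peg3 (-1.05) complete the called genes. Peg3 lost its call without WT replicate 2 (-0.98) or 3 (adjusted p = 0.0186), and without Hmgn2-/- replicate 2 (adjusted p = 0.0175) or 3 (-0.84). Peg10 (0.21) and Mest (0.49), paternally expressed genes, were not called.

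Interferon-inducible GTPases, enzymes of cell-autonomous defence against pathogens inside the cell, were lower in Hmgn2-/- mESCs. Of 20 members, 8 had enough counts to be tested: 0 were higher, 6 lower and 2 not called, with a median log2 FC of -2.45. Gbp2, a guanylate-binding protein, had 9.93, 11.6 and 13.7 in WT mESCs and 0.692, 0.38 and 0.479 in Hmgn2-/- mESCs (log2 FC -4.48, SE 0.241, adjusted p = 1.83e-06). Irgm1, an immunity-related GTPase, had 5.82, 9.68 and 10.2 in WT mESCs and 0.692, 1.06 and 1.44 in Hmgn2-/- mESCs (log2 FC -3.04, SE 0.294, adjusted p = 5.37e-05). Their relatives Gbp3 (-3.79), Gbp1 (-3.79), Gbp4 (-1.85) and Irgm2 (-1.35) were lower too. Irgm2 lost its call with DESeq2 (adjusted p = 0.0136), which left 5 lower genes, and without each single library (adjusted p = 0.0169 to 0.0421). Igtp (-0.93) and Gbp9 (-0.19) were not called. Summed over the list, led by Gbp2, the level was 28.7, 35.7 and 38.4 in WT mESCs and 5.26, 6.31 and 5.69 in Hmgn2-/- mESCs. The 3 Hmgn2-/- libraries lay close together and far below the WT libraries.

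Since 6 of the 8 members tested were called in the same direction, their promoters were searched on both strands for GAAA, any 2 bases and GAAA, the core of the element bound by interferon regulatory factors. RefSeq (GRCm38.p6) gave a window, 250 bases before to 50 after the start, for 5 of the 6 called genes. A window with a match was found for each of the 5, and for Igtp as well, the 1 uncalled gene with a window, so that the motif did not part called from uncalled members. These 6 of 6 are read against 3.28% of the genes tested with a window (363 of 11067) and 3.99% of all genes with a window (1079 of 27025). Gbp3 had a second window without a match. The windows are shown to let the position of the matches, in capitals, be compared: chr3:142620413-142620712 for Gbp2, chr3:142559794-142560093 for Gbp3, chr3:142594597-142594896 for Gbp1 and chr11:58214727-58215026 for Irgm2, all on the plus strand, and chr11:48871371-48871670 on the minus strand for Irgm1. On the opposite strand the motif reads TTTC, any 2 bases and TTTC, and overlapping matches run together. The same motif was in 7 of 16 windows of the list of nucleic acid sensing and type I interferon response, and in 1 of the 3 of its called members. Of 3 other motifs searched in all lists, GATAA, TTCNNNGAA and TATAAA, 2, 2 and 1 of the 6 GTPase windows held a match, against 18.6%, 7.92% and 8.91% of the genes tested with a window. TTCNNNGAA was also in 7 of the 16 windows of the interferon response list, among them those of all 3 called members. A match is a description of the letters, and binding was not measured in these data.
Gbp2: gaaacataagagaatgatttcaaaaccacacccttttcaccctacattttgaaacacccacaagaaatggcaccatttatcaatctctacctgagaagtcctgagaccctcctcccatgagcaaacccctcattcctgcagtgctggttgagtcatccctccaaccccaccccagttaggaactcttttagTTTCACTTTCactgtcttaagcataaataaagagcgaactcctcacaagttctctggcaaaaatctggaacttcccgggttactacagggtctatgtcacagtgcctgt
Gbp3: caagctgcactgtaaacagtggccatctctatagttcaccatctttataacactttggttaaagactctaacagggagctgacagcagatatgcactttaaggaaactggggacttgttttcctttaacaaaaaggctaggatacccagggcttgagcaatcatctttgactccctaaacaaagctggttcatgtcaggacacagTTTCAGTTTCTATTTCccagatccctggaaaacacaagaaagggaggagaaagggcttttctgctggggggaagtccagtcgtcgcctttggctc
Gbp1: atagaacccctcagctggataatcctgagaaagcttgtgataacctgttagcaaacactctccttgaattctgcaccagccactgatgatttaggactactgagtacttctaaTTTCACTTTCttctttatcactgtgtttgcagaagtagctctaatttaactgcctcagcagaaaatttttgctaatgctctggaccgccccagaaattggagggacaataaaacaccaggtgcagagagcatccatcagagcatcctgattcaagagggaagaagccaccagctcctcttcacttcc
Irgm1: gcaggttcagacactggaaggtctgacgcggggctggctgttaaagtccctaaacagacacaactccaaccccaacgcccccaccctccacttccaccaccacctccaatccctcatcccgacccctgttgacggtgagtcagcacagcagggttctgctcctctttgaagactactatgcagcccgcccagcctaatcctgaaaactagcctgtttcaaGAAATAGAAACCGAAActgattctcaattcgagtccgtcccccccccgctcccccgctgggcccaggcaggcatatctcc
Irgm2: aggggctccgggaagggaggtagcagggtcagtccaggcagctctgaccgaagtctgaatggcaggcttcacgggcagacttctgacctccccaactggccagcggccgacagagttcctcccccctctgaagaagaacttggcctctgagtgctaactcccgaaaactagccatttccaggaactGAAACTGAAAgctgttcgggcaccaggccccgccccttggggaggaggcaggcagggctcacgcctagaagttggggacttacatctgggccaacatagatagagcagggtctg

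Other genes of the interferon response moved in part. Of 21 genes of nucleic acid sensing and type I interferon response tested, 0 were higher, 4 lower and 17 not called, with a median log2 FC of -0.037. Oas1a, a sensor of double-stranded RNA, had 8.48, 9.51 and 8.69 in WT mESCs and 1.08, 1.60 and 2.70 in Hmgn2-/- mESCs (log2 FC -2.37, SE 0.253, adjusted p = 0.000102). Zbp1, a sensor of Z-form nucleic acid, had 2.35, 1.52 and 1.76 in WT mESCs and 0.115, 0.152 and 0.180 in Hmgn2-/- mESCs (log2 FC -3.67, SE 0.378, adjusted p = 8.2e-05). Irf1, a transcription factor of the pathway, had 38.0, 34.9 and 30.2 in WT mESCs and 13.8, 14.2 and 18.6 in Hmgn2-/- mESCs (log2 FC -1.16, SE 0.136, adjusted p = 0.000185). Ifi35 (-1.24) lost its call without WT replicate 1 (adjusted p = 0.0163), WT replicate 3 (adjusted p = 0.0169) or Hmgn2-/- replicate 2 (adjusted p = 0.0251). Ddx58, the RNA sensor RIG-I, had a log2 FC of -0.72 and was not called.

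Of 13 genes of MHC class I antigen presentation tested, 0 were higher, 4 lower and 9 not called, with a median log2 FC of -0.42. Tapbp, the peptide-loading chaperone tapasin, had 35.7, 37.5 and 37.7 in WT mESCs and 14, 15.9 and 18 in Hmgn2-/- mESCs (log2 FC -1.22, SE 0.11, adjusted p = 3.6e-05), and Erap1, which trims peptides, had a log2 FC of -1.54. Psmb8, an immunoproteasome subunit, had -2.81 with all libraries, -3.40 without Hmgn2-/- replicate 1, and no call without Hmgn2-/- replicate 2 (adjusted p = 0.0123). Tap2, a peptide transporter subunit, had -1.23 and kept its call only when Hmgn2-/- replicate 3 was the library left out, with an adjusted p of 0.0126 to 0.0304 without each of the other 5. Without Hmgn2-/- replicate 2 the list therefore held 2 lower genes. The light chain B2m (-0.49) and the heavy chain H2-K1 (0.13) were not called.

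Some contractile and matrix genes were lower, at the levels found in mESCs. Of 17 smooth muscle and actin genes tested, 0 were higher, 6 lower and 11 not called, with a median log2 FC of -0.67. Acta2, smooth muscle actin, had 11.4, 8.16 and 11.4 in WT mESCs and 1.42, 0.988 and 1.86 in Hmgn2-/- mESCs (log2 FC -2.91, SE 0.231, adjusted p = 1.76e-05), and Tagln, the actin-binding protein transgelin, had 53.2, 50.9 and 60.5 in WT mESCs and 11.6, 14 and 19.4 in Hmgn2-/- mESCs (log2 FC -1.88, SE 0.16, adjusted p = 2.54e-05). Cald1 (-1.88) and Myl9 (-1.48) were called too. Cnn1 (-1.30) lost its call without Hmgn2-/- replicate 2 (adjusted p = 0.0132), and Lmod1 (-2.40) without that library (adjusted p = 0.0193), WT replicate 2 (adjusted p = 0.0185) or WT replicate 3 (adjusted p = 0.0212). Of 16 interstitial collagen and mesenchymal matrix genes tested, 0 were higher, 6 lower and 10 not called, with a median log2 FC of -1.51. Timp3, an inhibitor of matrix proteases, had 9.86, 11 and 12.7 in WT mESCs and 1.84, 2.58 and 2.34 in Hmgn2-/- mESCs (log2 FC -2.31, SE 0.179, adjusted p = 1.42e-05). Col1a2 (-2.75), Col1a1 (-1.51) and Wisp1 (-2.48) were lower. The sum of that list, 468, 472 and 443 in WT mESCs and 598, 544 and 366 in Hmgn2-/- mESCs, overlapped between the groups because Fn1, the fibronectin gene, supplied most of its counts and was not called. Of 19 YAP targets and Hippo genes tested, 3 were lower, with a median log2 FC of -0.52. Cyr61 had -1.39. Axl (-1.33) lost its call without Hmgn2-/- replicate 2 (adjusted p = 0.0129), and Ctgf (-1.22) without that library (adjusted p = 0.0117), WT replicate 2 (adjusted p = 0.014) or WT replicate 3 (adjusted p = 0.0137), so that 1 gene of the list was called without Hmgn2-/- replicate 2.

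Genes listed as markers of fibroblasts, of macrophages and blood, and of endothelium were read for the same libraries. Of 14 fibroblast markers, 5 had enough counts to be tested and 3 were lower, with a median log2 FC of -1.51. Thy1, their member with most counts, had 10.8, 11.5 and 12 in WT mESCs and 3.30, 3.73 and 4.25 in Hmgn2-/- mESCs (log2 FC -1.62, SE 0.146, adjusted p = 3.64e-05), and the defining marker Lum was at 0 in all 6 libraries. The fibroblast list summed to 27.1, 23.6 and 28.7 in WT mESCs and 10.1, 10.6 and 12 in Hmgn2-/- mESCs. Of 12 macrophage and blood genes of the tables, 3 were tested and 1 was lower, or 2 with DESeq2, with the filter of 1 count over all libraries or, counting a gene that the main filter left out, without Hmgn2-/- replicate 3. The 1 gene, Cd68, a lysosomal protein, had 19.7, 27 and 30.4 in WT mESCs and 6.34, 7.18 and 10.4 in Hmgn2-/- mESCs (log2 FC -1.71, SE 0.2, adjusted p = 0.000185), while the macrophage gene Lyz2 was at 0 in all 6 libraries. The list had a median log2 FC of -1.2 and summed to 22.8, 32.0 and 34.3 in WT mESCs and 8.26, 9.16 and 12.6 in Hmgn2-/- mESCs. Of 8 endothelial markers tested, 1 was higher, 3 lower and 4 not called, with a median log2 FC of -0.97. The receptors Tie1 (-2.28), Flt1 (-1.95) and Tek (-1.44) were lower, Esam (1.31) was higher, and Pecam1, with most counts, had -0.50. The endothelial list summed to 102, 112 and 111 in WT mESCs and 73.3, 82.9 and 80.3 in Hmgn2-/- mESCs. Keratins and trophoblast factors are given above. The part of other cell types in these values was not tested.

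Lists of signalling pathways held both called and uncalled members. Their counts are read beside the 5.15% of all genes tested that were called. Of 22 FGF and ERK feedback genes tested, 1 was higher, 2 lower and 19 not called, with a median log2 FC of 0.19. The lower genes were Fgf5 and Egr1, an immediate response gene of ERK (log2 FC -1.07). The higher gene, the receptor Fgfr3 (1.06), lost its call without WT replicate 2 (0.98) or 3 (0.90), and without Hmgn2-/- replicate 1 (0.95) or 2 (adjusted p = 0.0153). Of 19 BMP pathway and Id genes tested, 1 was higher, 5 lower and 13 not called, with a median of -0.18. Bmper, a secreted BMP modulator, had 0.125, 0.281 and 0.138 in WT mESCs and 1.77, 1.94 and 1.32 in Hmgn2-/- mESCs (log2 FC 3.30, SE 0.382, adjusted p = 0.000169). Id3 (-1.73) and Id2 were lower, whereas Id1, a target of the same pathway with more counts, had 0.024. The BMP antagonist Nog (-1.80) was lower, though not without WT replicate 3 (adjusted p = 0.0114).

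Of 18 Wnt genes tested, 1 was higher, 4 lower and 13 not called, with a median log2 FC near that of all genes (-0.0015). Dkk1, a secreted Wnt antagonist, had 0.219, 0.169 and 0.346 in WT mESCs and 2.34, 2.70 and 2.34 in Hmgn2-/- mESCs (log2 FC 3.26, SE 0.314, adjusted p = 5.36e-05). Wnt7b, a ligand, had 14.4, 22.9 and 29.2 in WT mESCs and 3.15, 2.77 and 3.17 in Hmgn2-/- mESCs (log2 FC -2.87, SE 0.245, adjusted p = 2.54e-05), and the ligand Wnt3 had a log2 FC of -1.98. T, the brachyury gene and a Wnt target, had 1.60, 4.11 and 5.43 in WT mESCs and 0.576, 0.418 and 0.479 in Hmgn2-/- mESCs (log2 FC -2.89, SE 0.462, adjusted p = 0.0014). It also belongs to the primitive streak list, in which 3 of 13 genes tested were lower (5 with DESeq2) and 10 not called, with a median of -0.38. Evx1 of that list (-2.47) lost its call without WT replicate 2 or 3 and without Hmgn2-/- replicate 1 or 2, at adjusted p values of 0.03, 0.0332, 0.0161 and 0.0133. Of 15 LIF and STAT3 genes tested, the receptor subunit Il6ra was lower (-1.58) and 14 were not called, with a median of 0.20. This single call is near the share of all genes tested that were lower, 4.38%. Il6ra lost its call without the same 4 libraries, at 0.0247, 0.0229, 0.0172 and 0.0177, which left 0 called genes in that list.

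Neural lineage genes, of which 12 were tested, included 3 lower genes and had a median log2 FC of -0.42. Nefm, a neurofilament gene, had 3.35, 3.04 and 2.66 in WT mESCs and 0.768, 0.684 and 0.599 in Hmgn2-/- mESCs (log2 FC -2.12, SE 0.242, adjusted p = 0.000156), and Gap43 (-1.36) and Ncam1 (-1.16), genes of growing neurites and cell adhesion, were lower. A list of germline genes known for silencing by DNA methylation was not silent in WT mESCs, where it summed to 278.5 to 336.4. Of its 17 genes tested, 1 was higher, 5 lower and 11 not called, with a median of -0.80. Over all called genes, 84.9% were lower, which is near the split of this list. Tex19.1, a germ cell gene that mESCs express, had 90.9, 146 and 134 in WT mESCs and 38.7, 50 and 50.6 in Hmgn2-/- mESCs (log2 FC -1.41, SE 0.165, adjusted p = 0.000185). Tuba3a (-1.30), Mael (-1.19), Dazl (-1.10) and Hormad1 (-1.05) were lower as well, Hormad1 not without WT replicate 3 (-0.994) or Hmgn2-/- replicate 1 (-0.999). Tdrd1, a tudor protein of the piRNA pathway, went the other way, with 2.07, 3.32 and 2.42 in WT mESCs and 7.34, 8.32 and 6.05 in Hmgn2-/- mESCs (log2 FC 1.51, SE 0.207, adjusted p = 0.000515). Ddx4, the germ cell helicase Vasa, had a log2 FC of 0.80 (adjusted p = 0.000254), under the fold limit.

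Among chromatin genes, the histone variants macroH2A were raised. Of 12 linker histones and H2A variants tested, 2 were higher, 0 lower and 10 not called, with a median log2 FC of 0.27. H2afy, which encodes macroH2A.1, had 93.5, 71.1 and 73.1 in WT mESCs and 147, 164 and 181 in Hmgn2-/- mESCs (log2 FC 1.05, SE 0.116, adjusted p = 0.000133), and H2afy2, which encodes macroH2A.2, had 23.5, 13.9 and 13.5 in WT mESCs and 35.9, 32.2 and 35.0 in Hmgn2-/- mESCs (log2 FC 1.00, SE 0.184, adjusted p = 0.00313). Each Hmgn2-/- library lay above each WT library for both genes, but the folds sat at the limit. H2afy was at 0.98, 0.99 and 0.97 without WT replicate 2, WT replicate 3 and Hmgn2-/- replicate 3. H2afy2 was at 0.89 and 0.86 without the same WT libraries, and at 0.97 and 0.99 without Hmgn2-/- replicate 1 and 3. H2afy2 also lost its call under upper quartile scaling, with the filter of 10 counts per library and with 12 libraries in a single fit. The list therefore held 0 called genes without WT replicate 2, WT replicate 3 or Hmgn2-/- replicate 3, and 1 without Hmgn2-/- replicate 1. H2afz, the H2A.Z gene with most counts of the list, had a log2 FC of 0.18. Of 10 oncofetal genes of the Lin28, Hmga2 and Igf2bp families tested, 2 were lower and 8 not called, with a median of -0.13. Besides Hmga2, this was Igf2bp2, an RNA-binding protein, with 103, 87.1 and 84.8 in WT mESCs and 44.6, 39.4 and 36.8 in Hmgn2-/- mESCs (log2 FC -1.19, SE 0.105, adjusted p = 3.33e-05). Lin28b had a log2 FC of 0.55 (adjusted p = 0.00387).

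No member was called in the lists of the chromatin machinery, by edgeR or by DESeq2. These were Polycomb repressive complex 2 with the H3K27 demethylases (15 tested, 4 at an unadjusted p under 0.05), acetyltransferases and deacetylases of histones (20 tested, 2), and DNA methylation and imprint maintenance (14 tested, 6). Their lowest and highest log2 FC were -0.82 and 0.23, -0.74 and 0.22, and -0.76 and 0.83, in that order. The ends of the last range were both de novo methylation genes: Dnmt3a had 311, 316 and 268 in WT mESCs and 557, 546 and 487 in Hmgn2-/- mESCs (adjusted p = 0.00011), and the cofactor Dnmt3l had 758, 1033 and 1042 in WT mESCs and 479, 551 and 639 in Hmgn2-/- mESCs (adjusted p = 0.00244). In both genes the groups did not overlap, as in 5066 of the 14047 genes tested, and both folds were under the limit.

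Several lists of growth and stress held no call. By edgeR and DESeq2 alike, 0 of 75 cytoplasmic ribosomal protein genes (2 at an unadjusted p under 0.05), 0 of 18 genes of hypoxia and glycolysis (7), 0 of 18 of cholesterol synthesis (5), 0 of 14 metallothionein and oxidative stress genes (7) and 0 of 16 cadherin, claudin and EMT genes (10) were called. In 5 further lists, none of whose tested genes was called by either tool, other settings gave calls. Of 20 cell cycle genes (3 at an unadjusted p under 0.05), 1 was called lower under upper quartile scaling, with the filter of 10 counts per library, with 12 libraries in a single fit, with thinned counts, and without WT replicate 2, WT replicate 3 or Hmgn2-/- replicate 3. Of 19 p53 targets (9), 1 was lower with thinned counts and without WT replicate 1 or 2; Cdkn1a, the p21 gene, had -0.96 with all libraries and -1.02 without WT replicate 2. Of 17 genes of the ATF4 response (10), 2 were higher without WT replicate 1, Trib3 among them (0.86 with all libraries and 1.07 without it). That list had a median log2 FC of 0.40, and its sum, 2950, 2441 and 2633 in WT mESCs and 3355, 3314 and 3750 in Hmgn2-/- mESCs, was higher in each Hmgn2-/- library than in each WT library. Of 12 Nodal pathway genes (5), Lefty1 was lower with the filter of 1 count over all libraries, and the ligand Nodal (-0.97) without WT replicate 1 (-1.08) or Hmgn2-/- replicate 2 (-1.07). Of 10 Hox genes (5), 0 were called. Another, Hoxa5, had too few counts for the main test and was higher with DESeq2, with the filter of 1 count over all libraries, with 12 libraries in a single fit, which called Hoxa3 too, and without WT replicate 3 or Hmgn2-/- replicate 3.

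Heat shock and immediate early genes held calls that rested on few libraries. Of 13 heat shock genes tested, Cryab, a small heat shock protein, was lower (-1.35) and 12 were not called, with a median log2 FC of -0.097. As 4.38% of all genes tested were lower, 1 call is near the share over all genes. Without WT replicate 2 or 3, or Hmgn2-/- replicate 1 or 2, that list held 0 calls, and Cryab had -1.43, -0.91, -1.38 and -1.36. Cryab lost its call with the replicate block too. Of 15 immediate early genes tested, 3 were lower and 12 not called, with a median of -0.19. Egr1 kept its call without each library. Fos (-1.04) lost it without each library but Hmgn2-/- replicate 1 (adjusted p = 0.0146 to 0.0441), and Fosl2 (-1.03) without each WT library and without Hmgn2-/- replicate 2 (adjusted p = 0.0144 to 0.0373), so that 1 gene of the list was called without any of those 4 libraries.

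Further genes named for their size add to the picture. Erdr1 and its neighbour Mid1, at the end of the X chromosome, were higher: Erdr1 had 148, 145 and 148 in WT mESCs and 438, 410.5 and 458 in Hmgn2-/- mESCs (log2 FC 1.57, SE 0.0747, adjusted p = 8.63e-07), and Mid1, an E3 ubiquitin ligase gene, had 123, 143 and 135 in WT mESCs and 365, 328 and 303 in Hmgn2-/- mESCs (log2 FC 1.31, SE 0.0918, adjusted p = 6.31e-06). That region is repetitive and poorly assembled, so reads may be shared. Srgn, the proteoglycan serglycin, had 0.908, 1.07 and 0.692 in WT mESCs and 8.22, 6.73 and 7.49 in Hmgn2-/- mESCs (log2 FC 3.09, SE 0.209, adjusted p = 5.59e-06). Tcf15, a helix-loop-helix factor linked to exit from naive pluripotency, had 117, 119 and 119 in WT mESCs and 272, 228 and 263 in Hmgn2-/- mESCs (log2 FC 1.10, SE 0.0839, adjusted p = 1.25e-05). Gpx1, a glutathione peroxidase in a stretch of chromosome 9 described below, had 557, 620.3 and 629.8 in WT mESCs and 236, 278 and 326 in Hmgn2-/- mESCs (log2 FC -1.11, SE 0.112, adjusted p = 7.24e-05). Usp26, an X-linked deubiquitinase, had 6.20, 6.87 and 6.44 in WT mESCs and 0.538, 0.570 and 0.659 in Hmgn2-/- mESCs (log2 FC -3.47, SE 0.207, adjusted p = 2.62e-06), and Prss23, a serine protease, had 6.67, 5.91 and 8.55 in WT mESCs and 0.730, 0.722 and 0.359 in Hmgn2-/- mESCs (log2 FC -3.48, SE 0.262, adjusted p = 1.12e-05). Each of these genes was called, and its groups did not overlap, as in all 724 called genes.

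Along the genome, the medians of chromosomes 8, X and Y lay furthest from that of all genes. RefSeq gave a chromosome for 13991 of the 14047 genes tested. The 749 genes tested on chromosome 8 had a median log2 FC of 0.28, against 0.0036 over the other chromosomes, with 16 higher (2.14%, against 0.702% elsewhere) and 13 lower (1.74%, against 4.54%). Relative to the WT mean, the median of log2 levels on chromosome 8 was 0.249 to 0.254 in the Hmgn2-/- libraries and -0.0213 to 0.0126 in the WT libraries. The 491 genes tested on the X chromosome had a median log2 FC of -0.12, with 4 higher (0.815%) and 33 lower (6.72%). The share of lower genes on X was close to that of chromosomes 1 (6.11%) and 6 (5.92%). The Y-linked genes of this line, labelled male, were low in WT mESCs and nearly silent in the edited line: Ddx3y had 1.88, 1.91 and 2.80 in WT mESCs and 0.115, 0.152 and 0.0599 in Hmgn2-/- mESCs (log2 FC -4.20, SE 0.402, adjusted p = 5.14e-05). All 4 tested on the Y chromosome were lower. Uba1y (-3.23), which was not in the list, had -2.58 without Hmgn2-/- replicate 1 and lost its call without WT replicate 2 (adjusted p = 0.0122), WT replicate 3 (adjusted p = 0.0159) or Hmgn2-/- replicate 2 (adjusted p = 0.0115). The sum of the 4 genes of the list, of which 3 were tested, was 5.79, 4.56 and 6.05 in WT mESCs and 0.384, 0.38 and 0.659 in Hmgn2-/- mESCs. The other edited lines shared this low sum. With factors of all 12 libraries, it was 5.48 ± 0.79 in WT, 0.353 ± 0.067 in Hmgn1-/-, 0.472 ± 0.158 in Hmgn2-/- and 0.600 ± 0.341 in Hmgn1-/-Hmgn2-/- mESCs (SD, n = 3 each). Uty (-3.27) had -4.31 without Hmgn2-/- replicate 1 and lost its call without replicate 2 (adjusted p = 0.0136), Eif2s3y (-3.15) had -4.18 without replicate 3, and Kdm5d, not tested, was at least 3.81-fold lower. Copy number was not measured in these data, and its part in these shifts was not tested.

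**Figure D4:**
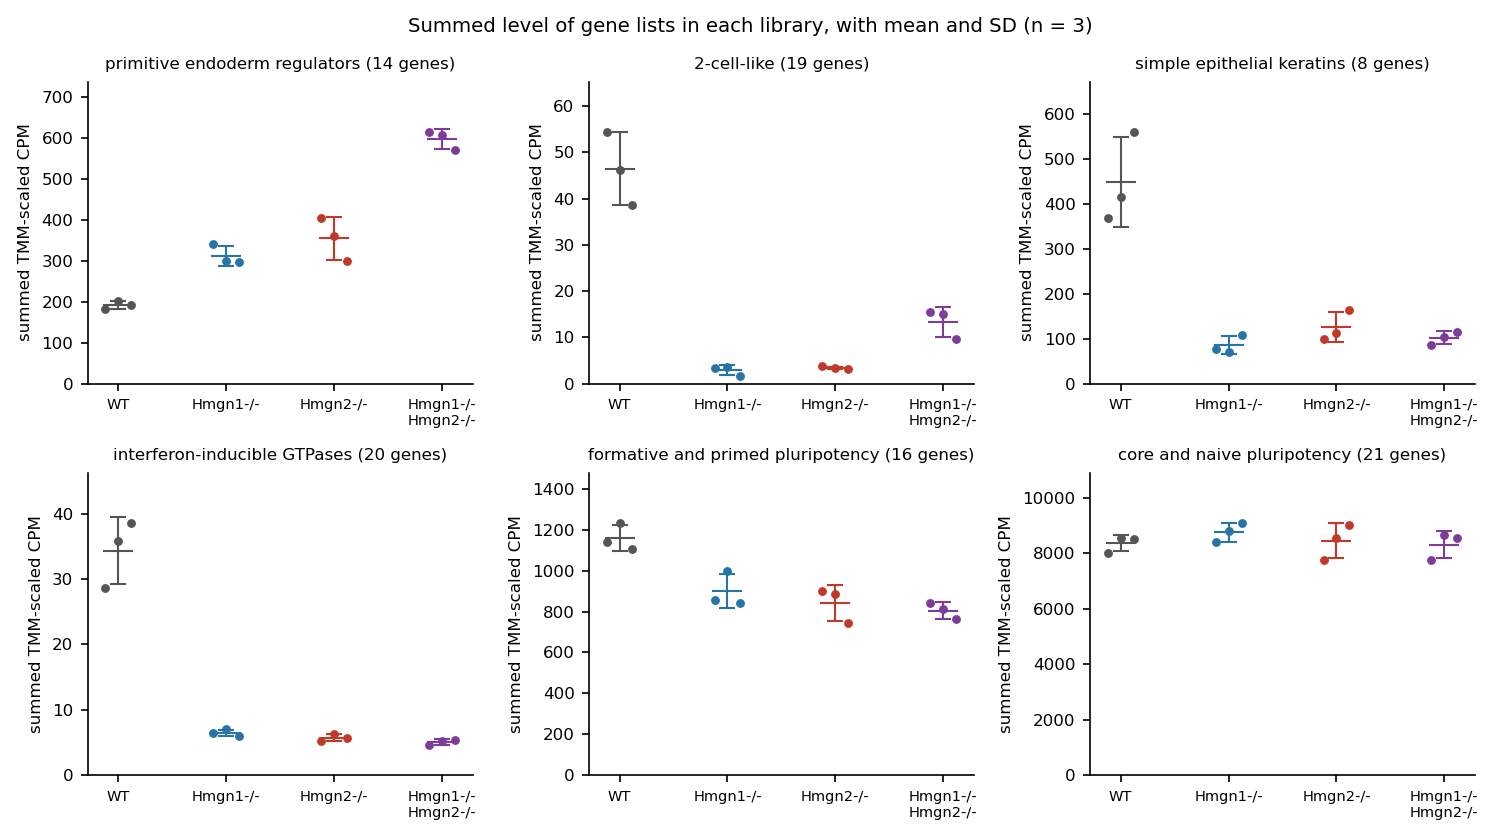
Summed TMM-scaled CPM of 6 gene lists in each of the 12 libraries, with the mean and SD of each line (n = 3) and axes from 0. The Hmgn2-/- libraries lie near the Hmgn1-/- libraries in each panel, and the primitive endoderm sum is highest in Hmgn1-/-Hmgn2-/- mESCs.

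The sums by line place these values beside the other edited lines, which share the WT libraries, and of which Hmgn1-/-Hmgn2-/- mESCs were made from the Hmgn2-/- line. The primitive endoderm list summed to 192 ± 10.1 in WT, 312 ± 24.4 in Hmgn1-/-, 355 ± 52.1 in Hmgn2-/- and 597 ± 23.4 in Hmgn1-/-Hmgn2-/- mESCs (SD, n = 3 each). The 2-cell-like list summed to 46.4 ± 7.92 in WT, 2.90 ± 1.09 in Hmgn1-/-, 3.41 ± 0.266 in Hmgn2-/- and 13.4 ± 3.24 in Hmgn1-/-Hmgn2-/- mESCs. For keratins the sums were 449 ± 99.9 in WT, 85.4 ± 20.7 in Hmgn1-/-, 125 ± 33.3 in Hmgn2-/- and 102 ± 14.5 in Hmgn1-/-Hmgn2-/- mESCs, and for interferon-inducible GTPases 34.3 ± 5.08 in WT, 6.45 ± 0.487 in Hmgn1-/-, 5.73 ± 0.517 in Hmgn2-/- and 5.05 ± 0.392 in Hmgn1-/-Hmgn2-/- mESCs. The low or high sums of Hmgn2-/- mESCs thus had a counterpart in Hmgn1-/- mESCs in each of these lists. In the direct test of Hmgn2-/- against Hmgn1-/- mESCs, edgeR, edgeR with the replicate number as a block, and DESeq2 each called 0 genes in these 4 lists. Of 14 primitive endoderm genes tested, 1 had an unadjusted p under 0.05 and the median log2 FC was 0.25. Of 7 keratin genes, 5 had an unadjusted p under 0.05 with a median of 0.76, so that keratins tended to be higher in Hmgn2-/- than in Hmgn1-/- mESCs. With the block, Krt8 (log2 FC 0.784, adjusted p = 4.04e-05) and Krt18 (0.599, adjusted p = 0.0033) passed the limit on adjusted p, which 0 of the 7 did without it, and stayed under the fold limit. Of 6 interferon-inducible GTPases it was 1 gene with a median of 0.0042, and of 3 genes of the 2-cell-like list 0 with a median of -0.0097.

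That direct test called 24 of 13648 genes (0.176%), 16 lower and 8 higher in Hmgn2-/- mESCs, while 437 genes had an unadjusted p under 0.05. Both edited genes were among them, each lower in its own knockout: Hmgn2 (log2 FC -1.04, adjusted p = 4.65e-05) and Hmgn1 (log2 FC 2.06, adjusted p = 5.68e-07). Grb10 set Hmgn2-/- mESCs apart, with 320.1 ± 14.7 in WT, 403 ± 7.96 in Hmgn1-/-, 34.6 ± 4.63 in Hmgn2-/- and 41.3 ± 2.86 in Hmgn1-/-Hmgn2-/- mESCs (SD, n = 3 each) and a log2 FC of -3.54 (adjusted p = 4.04e-08). Peg13 was lower as well (log2 FC -6.89, adjusted p = 2.67e-05; -6.29 without Hmgn2-/- replicate 2). In the other direction, the imprinted gene Nnat had 11.5 ± 1.27 in WT, 1.43 ± 0.591 in Hmgn1-/-, 14.3 ± 1.42 in Hmgn2-/- and 11.8 ± 1.07 in Hmgn1-/-Hmgn2-/- mESCs (log2 FC 3.34, adjusted p = 3.59e-05), so that here Hmgn2-/- mESCs stood with WT mESCs. Dock11, an X-linked exchange factor, had 19.5 ± 1.21 in WT, 1.96 ± 0.00855 in Hmgn1-/-, 12.5 ± 2.65 in Hmgn2-/- and 13 ± 2.12 in Hmgn1-/-Hmgn2-/- mESCs (log2 FC 2.68, adjusted p = 4.36e-05). C1qtnf1 (log2 FC 5.31, adjusted p = 0.000758) was likewise lowest in Hmgn1-/- mESCs. Erdr1 was higher in Hmgn2-/- mESCs than in Hmgn1-/- mESCs (log2 FC 1.16, adjusted p = 3.13e-05), with 147 ± 1.22 in WT, 194 ± 9.04 in Hmgn1-/-, 433 ± 22.9 in Hmgn2-/- and 409 ± 23.9 in Hmgn1-/-Hmgn2-/- mESCs.

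**Figure D5:**
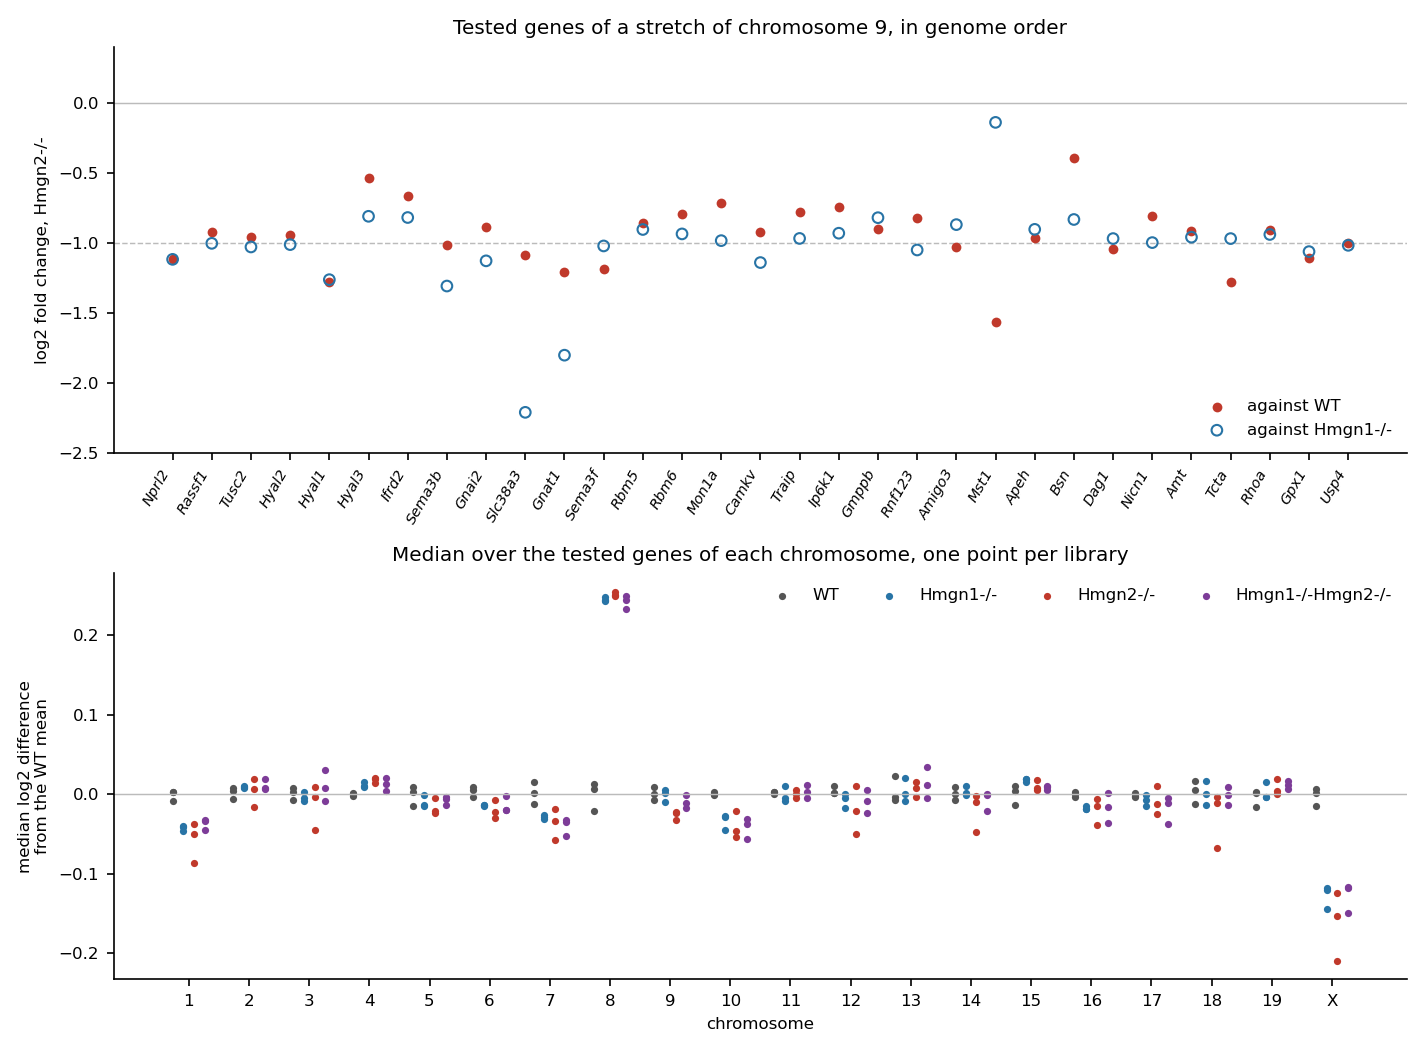
Top, log2 FC of Hmgn2-/- mESCs against WT (red) and against Hmgn1-/- (open blue) for the 31 tested genes of a stretch of chromosome 9, in genome order. Bottom, median over the tested genes of each chromosome of the log2 difference (CPM plus 0.5) from the WT mean, 1 point per library, where the 9 edited libraries lie near 0.25 on chromosome 8.

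A stretch of chromosome 9, chr9:107542226-108392545 (GRCm38) from Nprl2 to Usp4, held 11 of those 24 genes, all lower. All 31 genes tested there had a negative log2 FC in both comparisons, with a median of -0.98 against Hmgn1-/- mESCs and -0.92 against WT mESCs, in which 10 were called lower. The end genes Nprl2 and Usp4 were themselves called against Hmgn1-/- mESCs, so that the median in that comparison in part restates those calls. The comparison with WT mESCs uses the same Hmgn2-/- libraries and is not independent of it. Summed over the stretch, the level was 1108 to 1188 in Hmgn2-/- libraries and 1123 to 1147 in Hmgn1-/-Hmgn2-/- libraries, against 2149 to 2295 in WT and 2248 to 2370 in Hmgn1-/- libraries. The lines with the edited Hmgn2 gene thus lay near 1 log2 unit below the others, as the upper part of the plot by genome position shows. The calls varied with single libraries, by fold or by adjusted p. Against Hmgn1-/- mESCs, 7 were called without Hmgn1-/- replicate 2 and 6 without Hmgn2-/- replicate 2. Against WT mESCs, 4 were called without WT replicate 2, 6 without Hmgn2-/- replicate 1 and 5 without Hmgn2-/- replicate 2. Another stretch, on chromosome 11 from Tmc6 to C1qtnf1, held 3 of the 24 genes, 1 lower and 2 higher. Its summed level was 525.6 to 575.7 in Hmgn2-/- and 542.4 to 557.3 in Hmgn1-/-Hmgn2-/- libraries. It was 717 to 730.7 in WT and 629.6 to 654.5 in Hmgn1-/- libraries. The lower part of that plot shows that the shift of chromosome 8 was shared by the edited lines, at 0.242 to 0.248 in Hmgn1-/- and 0.232 to 0.249 in Hmgn1-/-Hmgn2-/- libraries. The downward shift of the X chromosome was shared too. It was -0.144 to -0.118 in Hmgn1-/-, -0.209 to -0.124 in Hmgn2-/- and -0.149 to -0.116 in Hmgn1-/-Hmgn2-/- libraries. Copy number could not be told from these counts.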

How the data were processed

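RNA-Seq was performed by the authors on poly-A-selected libraries, sequenced as paired ends and aligned to mm10 with STAR. The deposited values are raw counts per gene symbol without normalization, and the counting program, its annotation and its use of strand are not stated in the sources used here, so that overlapping or near-identical genes could share reads. Groups were taken from the sample labels. The 6 libraries were fitted in R 4.3.3 with edgeR 4.0.16 (TMM, default filter on low counts, quasi-likelihood test, Benjamini-Hochberg adjustment over all genes tested), and Hmgn2-/- and Hmgn1-/- mESCs likewise. The steps were tested on simulated data with known changes. Folds against a group at 0 use a floor of 3 counts over the group, and such bounds and intervals reflect counting error alone. No molecular identifiers are described. Side-by-side levels use TMM factors of all 12 libraries, and levels by chromosome a pseudocount of 0.5.

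Named genes were the HMG family, the 10 largest rises and 10 largest falls among called genes that averaged 50 counts or more without overlap, the 5 largest differences of mean level in each direction, up to 4 called members and set key members of each list, and each gene called against Hmgn1-/- mESCs. Predicted genes and multi-copy families were left out of the largest changes, and genes named beyond this rule were chosen after their values were seen. Not all genes that the rule gives are reported here. The members and lists were chosen with earlier results of these data known. Alternatives were RLE and upper quartile scaling, DESeq2 1.42.0, a filter of 1 count over all libraries, a filter of 10 counts per library, an adjusted p limit of 0.05, calls without a fold limit, glmTreat, a single fit of 12 libraries, thinned counts, a replicate block, and each library left out. Residuals of replicates with the same number had correlations of 0.237, 0.115 and 0.246 between Hmgn2-/- and Hmgn1-/- mESCs, against -0.269 to 0.0384 for different numbers. Between Hmgn2-/- and WT mESCs they were 0.0958, 0.146 and 0.0524, against -0.171 to 0.0553 for different numbers. Promoter windows and gene positions come from RefSeq (GRCm38.p6) and exons from GENCODE M21. Other assays of the study were not analysed.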

Additional observations from a re-analysis of the deposited data

How the results depend on the processing

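When single libraries were left out, the genes called in Hmgn2-/- against WT mESCs ran from 71 to 126 higher and from 429 to 646 lower, against 109 and 615 with all libraries. The higher genes numbered 168 at an adjusted p under 0.05, 464 with no fold limit and 20 with glmTreat, and the lower genes 936 with no fold limit and 152 with glmTreat, as the construction of these limits implies. Under RLE or upper quartile scaling, DESeq2, a filter of 1 count over all libraries, a filter of 10 counts per library, 12 libraries in a single fit, thinned counts and a replicate block, both counts stayed within 1.5 times. The replicate block gave 103 higher and 573 lower. Against Hmgn1-/- mESCs, 24 genes became 30 with DESeq2, the filter of 1 count or the replicate block, and 17 to 28 with a library left out. All 24 kept their call with the block. No named called gene changed direction in any of these alternatives. Of 119 named called genes, 119 kept their call under RLE scaling, 118 under DESeq2, which lost Irgm2, 118 under upper quartile scaling, 114 with the replicate block, 55 with glmTreat and 99 to 114 with a library left out. The genes lost with the replicate block were Col5a2, Cryab, Fos, Irgm2 and Tap2. The filter of 10 counts in every library left 79 of them to test, of which 77 kept their call. The test against a log2 FC of 1 also lost genes with larger folds and many counts, such as Id3 (-1.73) and Cd68 (-1.71). Genes under the filter on low counts could not be tested at this depth. The smallest library held 17337908 counts.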
